A study of Sus scrofa domesticus with 9 samples.

Results

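GNPTAB and 7 other genes of the lysosome were followed in the lungs of pigs fed a standard or an increased dose of cholecalciferol, the vitamin D3 of feed. The genes are GNPTAB, the hydrolase genes HEXA, GLB1 and LIPA, the cholesterol carrier genes NPC1 and NPC2, and the membrane protein genes LAMP1 and LAMP2. They were chosen by name, all 8 were found among the 35670 genes of the table, and all 8 were among the 12446 genes with a mean normalized count over 20. GNPTAB had been called by the study's own comparison of the doses, so the dose differences of the 8 genes are given as a description and without p-values. RNA came from the upper lobe of the left lung of female pigs, by the sample labels and the study's methods. The study's discussion instead speaks of males for the mRNA sequencing, and the labels were followed. The 4 standard-dose pigs (replicates 9, 17, 33 and 41) received 2000 IU of cholecalciferol per kg of grower feed and 1500 IU per kg of finisher feed. The 5 increased-dose pigs (replicates 3, 19, 27, 51 and 59) received 3000 and 2500 IU per kg. Both groups were fed for 88 days and no group was without cholecalciferol. Each library came from 1 animal.

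The lysosome is the acidic compartment in which cells digest lipids, glycans and proteins, and in the lung it is prominent in alveolar macrophages and in type 2 pneumocytes, which store surfactant in lysosome-related lamellar bodies. Most soluble hydrolases reach it because GlcNAc-1-phosphotransferase, whose catalytic part is encoded by GNPTAB, starts the mannose 6-phosphate tag that sorting receptors recognize in the Golgi. Loss of GNPTAB in humans causes mucolipidosis, in which hydrolases are secreted instead of delivered. HEXA and GLB1 encode enzymes that split the gangliosides GM2 and GM1, LIPA encodes the acid lipase that frees cholesterol from its esters, and NPC2 and NPC1 hand that cholesterol on across the lysosomal membrane. LAMP1 and LAMP2 are the abundant glycoproteins that line this membrane. Many lysosomal genes carry in their promoters the E-box CACGTG, to which TFEB and its relatives bind in human cells.

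The E-box was looked for in the pig genome Sscrofa11.1 because it is the regulatory sequence that lysosomal genes are known to share. CACGTG reads the same on both strands, and the window ran from 250 bases before to 50 bases after the gene start in the annotation of the deposited files. LAMP1 held 5 such sites and LAMP2 held 1, so 2 of the 8 genes had the motif, as had 7.71% of 20948 promoters of the same length. With the RefSeq gene starts the motif was found in 3 of the 8 genes, HEXA with 2 sites being the third, against 7.92% of 19556 promoters. These sites follow with the motif in capitals, for LAMP1 the farthest from the gene start and the 2 nearest, 177, 72 and 43 bases before it. The site of LAMP2 lay 44 bases before the start and those of HEXA 91 and 41 bases before its RefSeq start.
LAMP1, chr11:78600524-78600553, plus strand: tgcgagtcgtgtCACGTGacgccacaatca
LAMP1, chr11:78600629-78600658, plus strand: attcacggaggtCACGTGgcggcgcgggcg
LAMP1, chr11:78600658-78600687, plus strand: gcagcgcggcctCACGTGacgggcgccgcc
LAMP2, chrX:98623967-98623996, minus strand: tctggcccccttCACGTGcggagattggct
HEXA, chr7:60878428-60878457, plus strand: gccgtctctggtCACGTGacccgccaattg
HEXA, chr7:60878478-60878507, plus strand: tgaccatggcgtCACGTGactcggccagct

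The longer form TCACGTG, on either strand and overlapping CACGTG by construction, was present at every site shown and in 4.10% of all windows. It was found in the same number of the 8 genes, 2 with the deposited gene starts and 3 with those of RefSeq. No match was found for GNPTAB, GLB1, NPC1, NPC2 or LIPA in either window, which says only that these letters are not there. For 3 of these the window itself is in doubt, since the 2 annotations placed the gene start 97232 bases apart for GNPTAB, 61125 for LIPA and 25853 for GLB1. In 105 other lysosomal genes with a deposited start the E-box was present in 29, or 27.6%. A match is a description of the sequence and not evidence of a bound factor.

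Libraries held 4253502 to 5919294 reads in genes, made with a 3′ mRNA kit that reads each transcript near its end. The values are the authors' normalized counts, that is, reads divided by 1 size factor per library, so that 1 read is worth 0.853 to 1.49 normalized counts. Standard dose replicates 9 and 41 stood apart from the rest: their median Spearman correlations with the other libraries, across genes, were 0.751 and 0.831, against 0.912 to 0.933 for the other 7. Hepatocyte markers, 19 genes with none at 0, summed to 439974 normalized counts in replicate 9 and 122544 in replicate 41, against 34262 to 71121 in the others. Alveolar macrophage markers (12 genes, none at 0) summed to 4229 in replicate 41 and 12571 in replicate 9, against 15473 to 24950. Type 2 pneumocyte markers (9 genes, none at 0) summed to 4234 in replicate 9. They summed to 18748 in replicate 41 and 16320 to 29685 in the others. SFTPC, AGER and PECAM1, which mark type 2 cells, type 1 cells and endothelium, were present in every library, with lowest values of 1058, 163 and 1216 in replicate 9. ALB, the albumin gene, held 93890 normalized counts in replicate 9 and 41517 in replicate 41. Its lowest standard-dose value, 18640, lay within the 11163 to 22650 of the increased dose. All 19 hepatocyte markers were lower at the increased dose, with a median log2 difference of −1.38, or −0.41 without replicates 9 and 41. Groups did not overlap for 4 of the 19, beside 2.01% of all genes tested in that direction. All 9 type 2 and all 6 type 1 pneumocyte markers were higher, with medians of 0.70 and 1.00, or 0.23 and 0.40 without these libraries. So were 11 of 12 alveolar macrophage markers (0.81, or 0.11). Skeletal muscle markers (7 genes, none at 0) summed to 258266 in replicate 41 and 36797 in replicate 9, the highest and the lowest of all libraries, against 62095 to 148184 in the 7 others. All 7 were lower at the increased dose, with a median log2 difference of −0.24, or −0.34 without replicates 9 and 41. How these markers bear on the 8 genes was not tested. The differences between doses of the 8 genes and of the other genes named are therefore also given without replicates 9 and 41. That leaves replicates 17 and 33 alone at the standard dose, so these values rest on few animals. In bulk tissue, fewer cells of a type and less RNA per cell cannot be told apart.

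By level, LAMP1 had the highest normalized counts of the 8 genes, with a median of 6311 over the 9 libraries, followed by NPC2 at 3344, LAMP2 at 1586, LIPA at 586, HEXA at 208, GNPTAB at 155, NPC1 at 131 and GLB1 at 65.2. Each transcript is read near its end, so these levels need no correction for length, although how well each 3′ end is annotated can still shift them. In the 7 libraries other than replicates 9 and 41, LAMP1 exceeded NPC2, NPC2 exceeded LAMP2, LAMP2 exceeded LIPA, LIPA exceeded HEXA and NPC1 exceeded GLB1 every time. HEXA exceeded GNPTAB in 6 of these 7. Over all 9 libraries GNPTAB and NPC1 had no common order, since GNPTAB was the higher in 0 of 4 standard-dose and 5 of 5 increased-dose libraries. That split reflects the dose difference of GNPTAB, known when the gene was chosen, and is no separate result. Over the 7 libraries the coefficient of variation was lowest for LAMP1, at 8.68%, and highest for HEXA, at 32.8%. Over all 9 libraries that of LAMP1 was 160%, and that of GLB1 was 53.4% where it had been 19.0%.

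**Figure D1:**
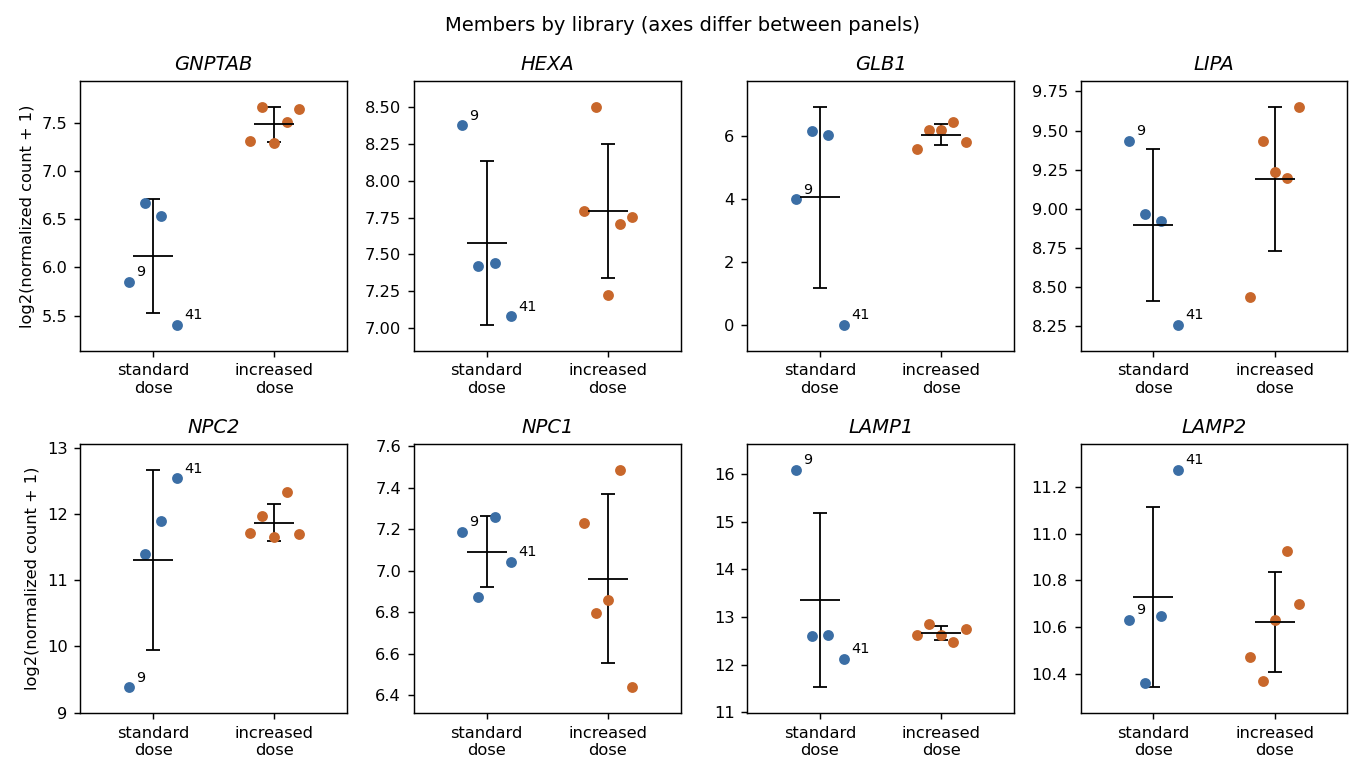
Log2(normalized count + 1) of each of the 8 genes by library, 1 point per animal, with the mean and standard deviation of 4 standard-dose and 5 increased-dose libraries. Replicates 9 and 41 of the standard dose are numbered. GNPTAB is the gene whose groups do not overlap, and LAMP1 and NPC2 have replicate 9 far from every other point.

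GNPTAB (ENSSSCG00000000862, chromosome 5 from 82361872 to 82460814, plus strand) had a higher normalized count in every pig on the increased dose than in any pig on the standard dose. Standard-dose libraries held 56.7 (replicate 9), 100.6 (17), 91.3 (33) and 41.4 (41) normalized counts. Increased-dose libraries held 157 (replicate 3), 201 (19), 155 (27), 181 (51) and 199 (59). The groups did not overlap, and replicates 9 and 41 were the lowest. Group means were 72.5 ± 28.04 (SD, n = 4) and 179 ± 22.1 (SD, n = 5), and the difference in mean log2(normalized count + 1) was 1.37 (standard error 0.29). This standard error takes no account of the choice of GNPTAB with this comparison known. Adding 1 makes such differences smaller for genes with few reads. Leaving out 1 library at a time gave 1.13 (without replicate 41) to 1.55 (without replicate 17). Without replicates 9 and 41 together it was 0.88 (standard error 0.24). The reads behind these values were 37 to 110 per standard-dose library and 174 to 236 per increased-dose library.

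Of the 8 genes, 1, GNPTAB, had groups that did not overlap, where 3.81% of all genes tested had, 1.80% with higher and 2.01% with lower values at the increased dose. limma called 0 of the 8 genes and 0% of all genes at an adjusted p of 0.05, and edgeR on the recovered reads likewise called 0 and 0%. At an unadjusted p under 0.05, limma had 1514 genes of 12446, or 12.2%. DESeq2 called 1 of the 8, GNPTAB, and 195 genes in all, or 1.57%, of which 27, or 0.217%, were higher at the increased dose, and it gave no adjusted p for LAMP1. Nothing is read from these counts for the 8 genes, which were chosen with this comparison known. The DESeq2 call of GNPTAB was kept in 3 of 9 fits that left out 1 library (replicate 17, 33 or 19). It was lost in the 6 that left out replicate 9, 41, 3, 27, 51 or 59.

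GNPTAB lies beside DRAM1 (chromosome 5 from 82290385 to 82325562, minus strand), the gene of a lysosomal membrane protein that acts in autophagy and is induced by p53 in human cells. Their starts are 36.3 kb apart and point away from each other. DRAM1 held 113, 234, 235 and 87.3 normalized counts in standard-dose replicates 9, 17, 33 and 41, and 351, 418, 441, 502 and 353 in increased-dose replicates 3, 19, 27, 51 and 59. Its groups did not overlap either, with the same 2 libraries lowest. The log2 difference of DRAM1 was 1.41 (standard error 0.31), and 0.80 without replicates 9 and 41. DESeq2 called DRAM1 with all 9 libraries, as it did 1.57% of all genes tested. Among 10213 named genes tested, DRAM1 had the fifth highest correlation with GNPTAB over the 9 libraries (Pearson r of log2 values 0.97), and r was 0.85 without replicates 9 and 41. Both values pool the doses, and a difference between doses in both genes by itself makes r high. Leaving out replicates 9 and 41 keeps that difference, so 0.85 is no check of it. No r within a dose was computed. The 6 other protein-coding genes tested that lie, at least in part, within 400 kb of the ends of GNPTAB had log2 differences between −0.32 (UTP20) and 0.58 (NUP37), all with overlapping groups. Their r with GNPTAB was between −0.41 and 0.85. Without replicates 9 and 41 the log2 differences of these 6 genes ran from −0.36 (MYBPC1) to 0.49 (WASHC3), with NUP37 at 0.10. In RefSeq the model of GNPTAB starts at 82264640, so that it spans DRAM1 on the other strand. The strand setting of the authors' counting is not given in the sources used here. In the deposited annotation the spans of both genes are separate.

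**Figure D2:**
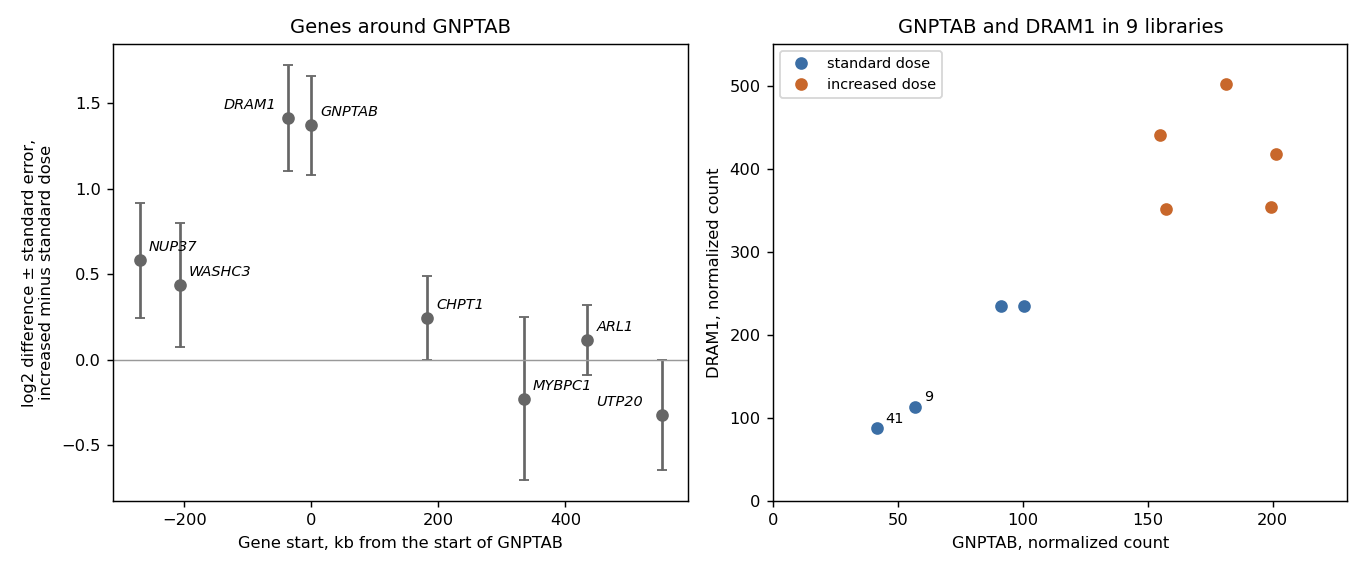
Left, log2 difference between doses with its standard error for GNPTAB and the 7 other protein-coding genes tested that lie at least in part within 400 kb of its ends, by distance in kb between gene starts. Right, normalized counts of DRAM1 against GNPTAB in 9 libraries, where all 5 increased-dose libraries lie at or above 155 for GNPTAB and 351 for DRAM1 and all 4 standard-dose libraries lie at or below 100.6 and 235.

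The other genes most like GNPTAB over the 9 libraries were AP3M1, RBX1, ARF4 and TEP1, each with an r of 0.97. AP3M1 encodes a subunit of the AP-3 adaptor, which carries membrane proteins to lysosomes, and ARF4 a small GTPase of Golgi traffic. RBX1 encodes the RING subunit of cullin ubiquitin ligases and TEP1 a protein of the telomerase complex. Without replicates 9 and 41 their r was 0.91, 0.88, 0.92 and 0.95 in that order. Among the most opposite genes were CLDN1, a tight junction claudin, and RNF169, a ubiquitin ligase of DNA repair, with r of −0.98 and −0.97. In all, 90 genes had an r over 0.9 and 28 an r under −0.9. These values are a description over libraries that share their dose and the 2 deviating libraries, and of the 7 other lysosomal genes described here GLB1 was the closest, at 0.82, in place 519.

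HEXA (ENSSSCG00000001927, chromosome 7 from 60878284 to 60913339, plus strand) encodes the alpha subunit of beta-hexosaminidase. It held 331, 170.0, 173 and 134 normalized counts in standard-dose replicates 9, 17, 33 and 41. In increased-dose replicates 3, 19, 27, 51 and 59 it held 221, 361, 149, 208 and 215. The groups overlapped almost wholly, with replicates 19 and 9, 1 of each dose, as the highest. Means were 202 ± 87.8 (SD, n = 4) and 231 ± 78.2 (SD, n = 5), with a log2 difference of 0.22 (standard error 0.31) and of 0.37 without replicates 9 and 41. Leaving out 1 library gave 0.04 (without replicate 19) to 0.48 (without replicate 9). GM2A, the activator protein of the same reaction, averaged 1394 normalized counts.

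GLB1 (ENSSSCG00000024119, chromosome 13 from 18878612 to 18953146, minus strand) encodes lysosomal beta-galactosidase and had the fewest reads of the 8 genes. Replicates 9, 17, 33 and 41 of the standard dose held 14.9, 70.4, 65.2 and 0 normalized counts, from 10, 77, 75 and 0 reads. A count of 0 allows up to 3 reads, or 3.36 normalized counts, in replicate 41. Replicates 3, 19, 27, 51 and 59 of the increased dose held 47.0, 72.5, 72.3, 86.6 and 55.8, from 52 to 85 reads. The low values were those of replicates 9 and 41, and the other 2 standard-dose libraries lay within the range of the increased dose. The log2 difference of 2.00 (standard error 0.99) became 0.65 without replicate 41 and −0.05 without replicates 9 and 41. With all 9 libraries edgeR and DESeq2 gave 0.81 and 0.82.

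LIPA (ENSSSCG00000010450, chromosome 14 from 101126257 to 101193614, minus strand) held 691, 499, 485 and 306 normalized counts in standard-dose replicates 9, 17, 33 and 41. In increased-dose replicates 3, 19, 27, 51 and 59 it held 346, 691, 602, 586 and 802. Replicate 59 was the highest and replicate 41 the lowest, but the groups overlapped. Means were 495 ± 157 (SD, n = 4) and 605 ± 169 (SD, n = 5), with a log2 difference of 0.29 (standard error 0.29) and of 0.25 without replicates 9 and 41. It was 0.08 without replicate 41 and 0.48 without replicate 3. The first 196 bases of LIPA overlap IFIT2, an interferon-induced gene on the other strand, away from the 3′ end that the kit reads.

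NPC2 (ENSSSCG00000002366, chromosome 7 from 97730516 to 97740331, minus strand) encodes the soluble protein that takes up cholesterol in the lysosomal lumen. Standard-dose replicates 9, 17, 33 and 41 held 667, 2689, 3806 and 5974 normalized counts, the lowest and the highest of all 9 libraries being in this group. Increased-dose replicates 3, 19, 27, 51 and 59 held 3344, 4010.1, 3226, 5145 and 3317. The median of the 8 other libraries was 5.36 times the value of replicate 9, and 1.15% of all genes tested were at least as far below their median there. The log2 difference of NPC2 was 0.57 (standard error 0.49), and 0.21 by edgeR and by DESeq2. It was −0.07 without replicate 9, 0.98 without replicate 41 and 0.23 without replicates 9 and 41.

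NPC1 (ENSSSCG00000003707, chromosome 6 from 108402879 to 108450990, minus strand) encodes the membrane protein that exports this cholesterol. It held 145, 116, 152 and 131 normalized counts in standard-dose replicates 9, 17, 33 and 41, and 149, 110.0, 115, 178 and 85.7 in increased-dose replicates 3, 19, 27, 51 and 59. Both the highest and the lowest value were at the increased dose, and replicates 9 and 41 were in the middle of the range. The means were 136 ± 15.9 (SD, n = 4) and 128 ± 36.3 (SD, n = 5), with a log2 difference of −0.13 (standard error 0.26) and of −0.10 without replicates 9 and 41. It ran from −0.26 without replicate 51 to 0.00 without replicate 59. The last 291 bases of NPC1 overlap the end of RMC1 on the other strand, which itself held 2.24 to 14.4 normalized counts. The ratio of NPC2 to NPC1 was 4.61 in replicate 9, 45.6 in replicate 41 and 22.4 to 38.7 in the other 7 libraries.

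LAMP1 (ENSSSCG00000009555, chromosome 11 from 78600713 to 78617615, plus strand) had 1 extreme library. Standard-dose replicate 9 held 69598 normalized counts, from 46651 reads, which made LAMP1 the seventh most counted gene in it. Replicates 17, 33 and 41 held 6201, 6305 and 4471, and increased-dose replicates 3, 19, 27, 51 and 59 held 6332, 7453, 6311, 5683 and 6860. Replicate 9 stood at 11.0 times the median of the other 8, and without it the groups overlapped within a narrow range. The share of all reads that came from LAMP1 was 1.01% in replicate 9 (Wilson 95% interval 0.997% to 1.01%), and 0.0939% to 0.1497% elsewhere, intervals that cover counting error only. At least as large an excess in replicate 9 was present in 263 genes, or 2.11% of those tested. The log2 difference of LAMP1 was −0.69 (standard error 0.63), or −1.70 by edgeR and −1.73 by DESeq2. By limma it was 0.22 without replicate 9 and 0.06 without replicates 9 and 41.

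Genes around LAMP1 were looked at after its value in replicate 9 had been seen. Of the 8 other named protein-coding genes within 100 kb, GRTP1, which ends 1097 bases beyond LAMP1 on the other strand, held 197 normalized counts in replicate 9 against 24.1 to 56.6 in the 7 libraries other than replicates 9 and 41. PCID2 held 430 against 87.9 to 177. F10, which encodes a coagulation factor made by the liver, held 1055 against 38.5 to 91.3. CUL4A, the nearest gene on the other side, held 476 against 489 to 849, and TMCO3 held 95.5 against 187 to 323. The excess in replicate 9 was thus present in some neighbours of LAMP1 and not in others. The summed hepatocyte markers were high in the same library, and their part in the LAMP1 count was not tested.

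LAMP2 (ENSSSCG00000012604, chromosome X from 98556710 to 98623940, minus strand) had no such excess in replicate 9. It held 1586, 1315, 1602 and 2477 normalized counts in standard-dose replicates 9, 17, 33 and 41, and 1421, 1322, 1583, 1945 and 1664 in increased-dose replicates 3, 19, 27, 51 and 59. Replicate 41 was the highest and replicate 9 was near the median, with the groups overlapping. The means were 1745 ± 506 (SD, n = 4) and 1587 ± 241 (SD, n = 5), with a log2 difference of −0.11 (standard error 0.23) and of 0.12 without replicates 9 and 41. It ran from −0.23 without replicate 17 to 0.07 without replicate 41. The ratio of LAMP1 to LAMP2 was 43.9 in replicate 9, 1.81 in replicate 41 and 2.92 to 5.64 in the other 7 libraries.

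**Figure D3:**
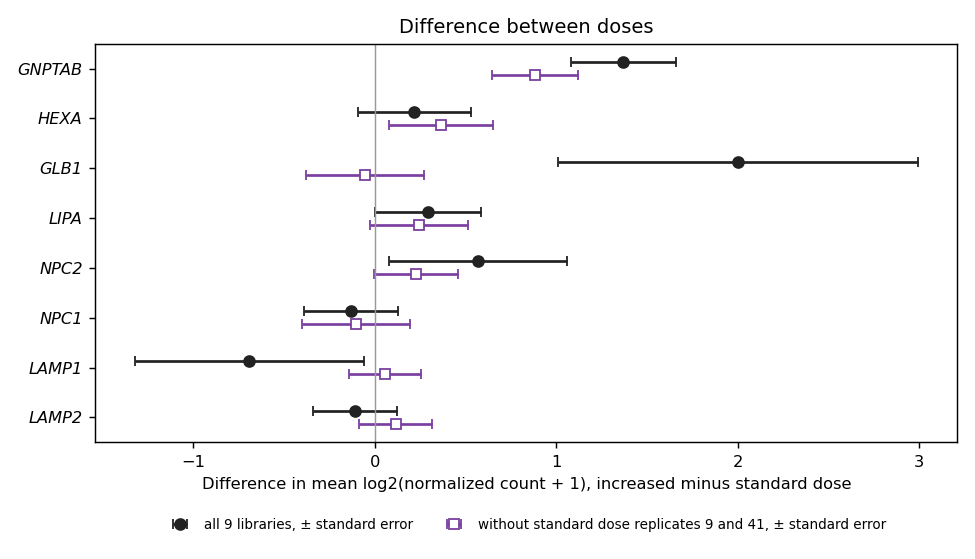
Difference in mean log2(normalized count + 1) between the increased and the standard dose for the 8 genes, with standard errors, over all 9 libraries (filled circles) and without standard dose replicates 9 and 41 (open squares). GNPTAB moves from 1.37 to 0.88, GLB1 from 2.00 to −0.05 and LAMP1 from −0.69 to 0.06.

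Of the 8 genes, 5 had a positive and 3 a negative difference, with a median of 0.26, against 50.8% positive and a median of 0.01 over all genes tested. Without replicates 9 and 41 the median of the 8 genes was 0.17. Replicate 41 was the lowest library for 5 of the 8 (GNPTAB, HEXA, GLB1, LIPA and LAMP1) and for 22.4% of all genes. It was the highest for LAMP2 and NPC2. Replicate 9 was the highest for LAMP1 and the lowest for NPC2, as for 29.1% and 21.3% of all genes.

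**Figure D4:**
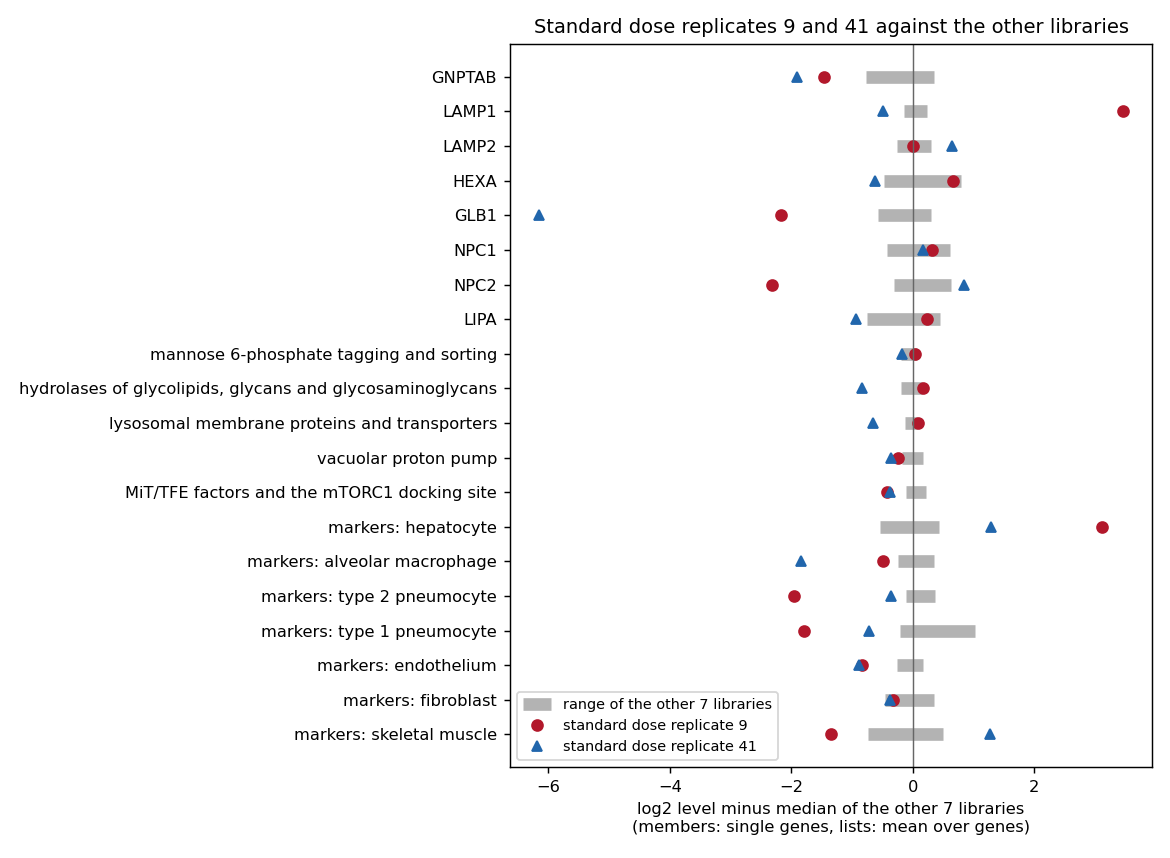
Log2 level of the 8 genes, and mean log2 level of 5 lysosomal and 7 marker lists, in standard dose replicates 9 (circles) and 41 (triangles), each minus the median of the other 7 libraries, whose range is the grey bar. LAMP1 lies 3.46 above that median in replicate 9, where the hepatocyte markers lie 3.12 above it. GLB1 and the alveolar macrophage markers lie 6.16 and 1.84 below it in replicate 41.

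No pair of the 8 genes passed a test of covariation across the 9 libraries after adjustment, which with so few libraries does not show that they vary apart. The test pools both doses. Pairs with GNPTAB therefore carry the dose difference that was known when it was chosen, and their p-values are no support. Over their 28 pairs, the exact permutation test of Pearson's r gave an unadjusted p under 0.05 for 3 pairs and an adjusted p under 0.05 for 0 pairs, and that of Spearman's rho for 2 and 0. The strongest pair was LAMP1 and NPC2, with r = −0.95 (exact permutation p = 0.00587, adjusted 0.0943) and rho = −0.53 (exact permutation p = 0.148, adjusted 0.459). It rested on replicates 9 and 41, the libraries farthest from the median of LAMP1, and r was −0.20 without them. GNPTAB and GLB1 had r = 0.82 (exact permutation p = 0.00674, adjusted 0.0943) and rho = 0.65 (exact permutation p = 0.0666, adjusted 0.459), and an r of 0.00 without the same libraries. LAMP1 and HEXA, with r = 0.62 (exact permutation p = 0.0498, adjusted 0.427) and rho = 0.82 (exact permutation p = 0.0108, adjusted 0.302), kept an r of 0.68 without them. The sign of r changed in 12 of the 28 pairs when replicates 9 and 41 were left out.

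Other genes of the same pathways were taken from 5 lists of 114 names, of which 107 were in the table and 97 were tested. None of the 97 was called by limma, edgeR or DESeq2, which called 0%, 0% and 1.57% of all genes tested. DRAM1, the lysosomal gene beside GNPTAB that DESeq2 called, was in none of these lists. With limma, 11 of the 97 had an unadjusted p under 0.05, 10 higher and 1 lower at the increased dose, beside 12.2% of all genes, and the smallest adjusted p was 0.397. The difference was positive for 68 and negative for 29, with a median of 0.16, which was 0.03 without replicates 9 and 41. Groups did not overlap for 4 of the 97, or 4.12%, beside 3.81% of all genes. MCOLN1 and LAMTOR3 were the higher and TMEM192 and OSTM1 the lower ones at the increased dose. Replicate 41 was the lowest library for 39 of the 97. Over the mean log2 levels of the 5 lists, exact two-sided permutation tests gave p of 0.175 to 0.460 (adjusted 0.327 to 0.460), where 0.00794 was the smallest possible.

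None of the partners of GNPTAB in the tagging route was called, beside 0% of all genes by limma and edgeR and 1.57% by DESeq2. Nothing is read from this for the route. GNPTG, the regulatory subunit of the same transferase, held 13.05 to 21.0 normalized counts at the standard dose and 12.5 to 29.0 at the increased dose. Its log2 difference was 0.29 (standard error 0.46). NAGPA, which uncovers the tag, had 0.08 (standard error 0.48). M6PR and IGF2R, the receptors of the tag, had 0.26 (standard error 0.25) and −0.13 (standard error 0.25). Without replicates 9 and 41 the differences of GNPTG, NAGPA, M6PR and IGF2R were 0.38, 0.52, 0.00 and 0.10, so that the direction of IGF2R turned. GNPTG, NAGPA and M6PR were singled out after their values had been seen. Of the sorting receptors that do not need the tag, SORT1 had 0.90 and SORL1 −0.82, with adjusted p of 0.401 and 0.413 by limma. Without the same libraries these were 0.15 and −0.52. The list of 12 tagging and sorting genes had 9 positive and 3 negative differences and a median of 0.15, or 0.12 without these libraries.

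Among 31 other hydrolases and their activators, 20 differences were positive and 11 negative, with a median of 0.11. PSAP, the saposin precursor, averaged 4527 normalized counts and had a log2 difference of 0.70 (standard error 0.38), with 0.03 without replicates 9 and 41. GM2A had 0.19 (standard error 0.27), and 0.02 without them. The extremes were SMPDL3A, a phosphodiesterase, at 1.01 and PPT2, a thioesterase, at −0.79, which became 0.29 and −0.63 without these libraries. The median of the list became 0.05. Replicate 41 was the lowest library for 20 of these 31 genes, and it was also low in alveolar macrophage markers, whose part in this was not tested.

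Among 24 other membrane proteins and transporters, 17 differences were positive and 7 negative, with a median of 0.32 that became −0.10 without replicates 9 and 41. CD63, a tetraspanin, had 0.44 (standard error 0.29), LAPTM4A 0.41 (standard error 0.27) and SCARB2, the carrier of glucocerebrosidase, −0.10 (standard error 0.24). All 3 directions turned without replicates 9 and 41, to −0.04, −0.10 and 0.20. CD68, a macrophage glycoprotein of the LAMP family, had the largest difference, 1.03, which was 0.30 without replicates 9 and 41, and SLC38A9, an arginine sensor, the smallest, −0.62, which was −0.13 without them. The 14 genes of the vacuolar proton pump had 11 positive differences and a median of 0.16, which turned to −0.04 without replicates 9 and 41. They ran from −0.50 for ATP6V0A1 to 0.64 for TCIRG1, or −0.30 and 0.49 without these libraries. The most counted, ATP6AP1, ATP6V1G1 and ATP6V0B, had 0.34, 0.32 and 0.16, and 0.09, −0.21 and 0.27 without them.

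The 16 genes of the MiT/TFE transcription factors and of the surface on which mTORC1 docks had 11 positive differences and a median of 0.18. LAMTOR3, a subunit of the Ragulator scaffold, had the largest, 0.78 (standard error 0.26, adjusted p = 0.397 by limma), and its groups did not overlap, with 140 to 256 normalized counts at the standard dose and 266 to 479 at the increased dose. It was 0.47 without replicates 9 and 41. TFEB, the regulator of lysosomal genes, had the smallest, −0.56 (standard error 0.30), and −0.24 without replicate 9, its highest library, as without both. FLCN, LAMTOR5 and RRAGC, the most counted of this list, had 0.26, 0.12 and −0.02, and 0.07, 0.05 and 0.13 without replicates 9 and 41. The median of the list was then 0.05.

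**Figure D5:**
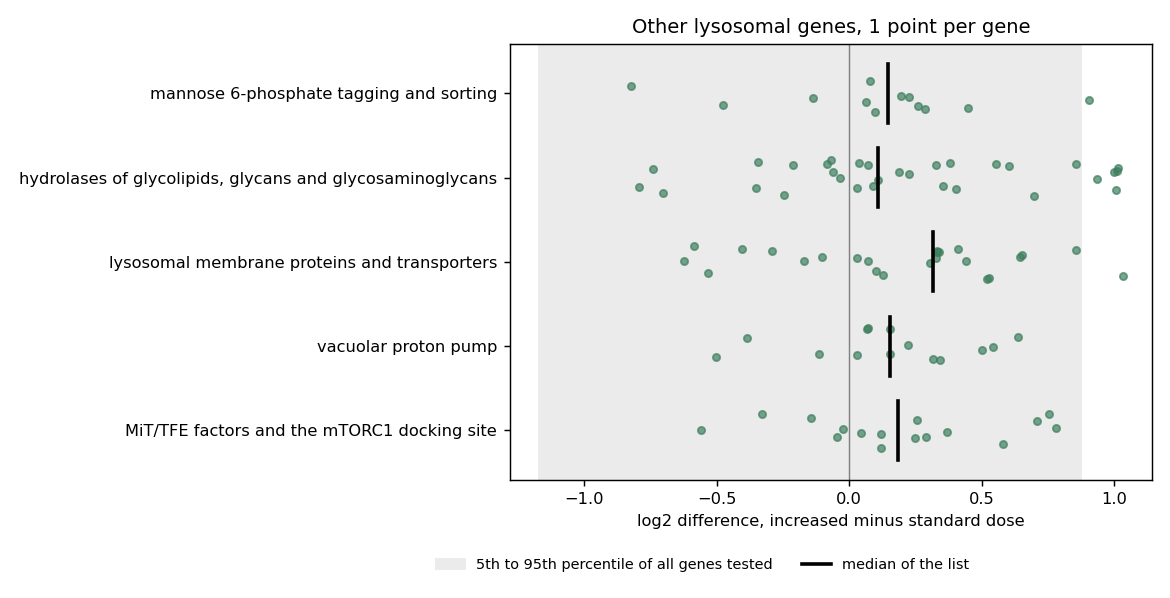
Log2 difference between doses of 97 other lysosomal genes in 5 lists, 1 point per gene, with the median of each list as a bar. The grey area runs from the 5th to the 95th percentile of all 12446 genes tested, −1.17 to 0.88, and holds 90 of the 97.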

How the data were processed

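Upstream, the authors used FastQC for quality control, FLEXBAR 3.5.0 for trimming and TopHat 2.1.1 for alignment to the Sscrofa11.1 genome, and obtained counts of genes in Ensembl annotation 96 from HTSeq-count 0.11.1. The deposited signal values are these counts divided by 1 DESeq2 size factor per library. A second deposited sheet gave gene names and positions. The deposited table also holds the authors' own fold changes, standard errors, Wald statistics and p-values, which were not used. Of 10 animals with RNA, 1 gave a library that the authors left out. For replicate 33 the sample description gives 31, and the title was followed.

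In every library 100% of values were whole multiples of 1 read within 0.01, so reads were recovered. They came to 4253502 to 5411543 per standard-dose library and 4427608 to 5919294 per increased-dose library. On the recovered reads, edgeR 4.0.16 called 0 genes and DESeq2 1.42.0 called 195. Differences, standard errors and p-values are from limma 3.58.1 (R 4.3.3) on log2(normalized count + 1), with a mean-variance trend, 4 libraries against 5, for genes with a mean normalized count over 20, with Benjamini-Hochberg adjustment over all genes tested and two-sided tests. List means and correlations were tested with exact permutation tests over all splits or pairings. Wilson intervals are from scipy 1.17.1. Python 3.11.15, numpy 2.4.6, pandas 2.3.3 and matplotlib 3.10.9 were used. The code was tested on simulated data.

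The members, lists and tests were chosen with earlier results of these data known. In each list the 3 genes with the highest mean count and those with the largest and the smallest difference were named, with the 5 genes most like GNPTAB and the 3 least like it, of which some are not reported here. With 1 library per animal, limma p-values set the difference between doses against the spread among animals of the same dose. Permutation p-values of gene pairs are over the 9 animals with both doses pooled. Promoter windows and the RefSeq gene starts are from the Sscrofa11.1 assembly. Alternatives were pseudocounts of 0.5 and 5, other filters on low values, TMM factors, edgeR, DESeq2 and leaving out libraries. DESeq2 without single libraries, the RefSeq starts, Spearman's rho, and the neighbours of GNPTAB and LAMP1 and the lysosomal genes without overlap were added after the data were seen.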

Additional observations from a re-analysis of the deposited data

Results flagged for a closer look

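In 26 groups of 4 or 5 libraries, over the 8 genes and the 5 lysosomal list means at each dose, the highest and the lowest library were compared with the rest of the group. LAMP1 at the standard dose was the 1 that stood out: replicate 9 held 69598 normalized counts, and its gap to the next library (6305) was 0.972 of the whole range, where Dixon's 95% critical value for 4 libraries is 0.829. Chance alone takes about 1 group in 20 past its critical value. That rate belongs to the critical value and not to a gap of 0.972.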

How the results depend on the processing

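Direction was kept by GNPTAB and LIPA in all 27 settings tried. For GNPTAB, whose groups do not overlap, leaving out libraries could not have turned it, so this is no support. LAMP1 and LAMP2 changed sign in 4 of 27, GLB1, NPC1 and NPC2 in 2 and HEXA in 1. Leaving out 1 library, limma called 0 genes each time and the numbers called by DESeq2, 195 with all 9, ran from 6 (without replicate 51 or 59) to 700 (without replicate 33), with 10, 540, 61, 34, 197 and 16 without replicates 9, 17, 41, 3, 19 and 27. It was 10 without replicates 9 and 41. Genes of the 5 lysosomal lists, which do not hold DRAM1, were called only by DESeq2 without replicate 33, which called 3. The differences in list means without 1 library were 0.06 to 0.14 for tagging and sorting, −0.02 to 0.32 for hydrolases, 0.02 to 0.27 for membrane proteins, 0.08 to 0.21 for the proton pump and 0.12 to 0.27 for the MiT/TFE and mTORC1 genes. TMM factors moved the median of all genes by 0.05. No paired analysis was possible because the groups share no replicate numbers. The causes were not tested. GLB1 rests on 0 to 85 reads per library, and with 0.5 or 5 in place of 1 added its difference was 2.26 or 1.39.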
